A study of Mus musculus with 18 samples.

Results

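The 88 genes described here encode the proteins of the cytosolic ribosome in mouse CD8+ T cells. They were taken from the 24537 gene symbols of the count table by name: symbols that begin with Rpl or Rps and a digit, together with Rpsa, Rplp0, Rplp1 and Rplp2, without pseudogene symbols, antisense symbols, the S6 kinases and the Rps19 binding protein. Of them, 54 belong to the large subunit and 34 to the small subunit. All 88 were found in the GENCODE M21 annotation of GRCm38, although that annotation lists Rpl32l, Rpl37rt and Rps4l as processed pseudogenes. Fau and Rack1 also sit in the ribosome but fall outside the naming rule, and they are given as companions.

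A ribosome holds a large subunit, which joins amino acids, and a small subunit, which reads the mRNA, and each protein is needed in about the same number of copies. Many of the mRNAs start with a run of pyrimidines, the 5′ terminal oligopyrimidine (TOP) tract, through which mTORC1 signalling controls how well they are translated. Activated T cells make many ribosomes while they grow, and because TOP control acts on translation, the mRNA level does not report the rate at which the proteins are made.

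Naive CD8+ T cells had been given CRISPR ribonucleoprotein with a scrambled guide (labelled WT) or with a Nur77 guide kit (labelled KO, the gene Nr4a1, a nuclear receptor induced by T cell receptor signals). All cells were then activated with antibodies to CD3 and CD28 and kept overnight without or with the bile acid lithocholic acid (LCA). The 6 groups are WT control, WT with 10 µM LCA (WT LCA10), WT with 50 µM LCA (WT LCA50), and the same 3 for KO, with 3 libraries each, 18 in all. The question was how LCA acts on cells with and without Nur77. Whether the 3 libraries of a group stand for separate mice or separate dishes is not in the labels, and the p-values therefore rest on a spread that may be technical. The strain, sex and age of the mice and the vehicle of the controls were not stated in the labels.

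Libraries held 4113713 to 5945518 counts. The 7 CD8 T cell markers used summed to 3568 to 4774 CPM (counts scaled to the same library total), while Cd4 reached at most 1.29 CPM and was 0 in 10 libraries. The 4 markers of CD4 T cells together (Cd4, Zbtb7b, Foxp3 and Cd40lg) summed to 12.6 to 17.97 CPM in WT control, 20.7 to 25.7 in WT LCA50, 14.3 to 18.6 in KO control and 18.6 to 36.2 in KO LCA50. The sum of 3 NK markers was 77.9 to 156 CPM, nearly all of it Eomes, which activated CD8 T cells also make, while Ncr1 reached at most 0.894 and Klrb1c at most 1.95 CPM. The sum of 8 myeloid markers was 44.5 to 69.2 CPM in WT and 14.9 to 28.6 CPM in KO libraries. Counts on 1470 olfactory, vomeronasal and trace amine receptor genes, which T cells are not known to use, took 50.4 to 113 CPM in the libraries without LCA or with 10 µM, 121 to 223 CPM in WT LCA50 and 47.2 to 164 CPM in KO LCA50. Nr4a1 stood at 5.87 to 18.02 CPM over all libraries and was not called between KO control and WT control (log2 fold change 0.14 ± 0.33 SE, adjusted p = 0.963, edgeR). An mRNA count does not read a small edit, so this does not check the guide, and groups are named by their labels throughout.

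The 30 bases around an annotated start show what many of these genes share beyond their names. They run from 15 bases before the start to 15 from it, on the gene's own strand, from RefSeq on GRCm38.p6, and capitals mark the longest run of C and T of at least 5 bases. The genes shown are 11 of those named in the comparisons, together with Rps6, the S6 kinase target.
Rps6 (chr4:86857353-86857382, minus strand): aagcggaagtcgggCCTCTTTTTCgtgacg
Rpl14 (chr9:120571502-120571531, plus strand): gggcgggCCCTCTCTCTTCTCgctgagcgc
Rpl4 (chr9:64173372-64173401, plus strand): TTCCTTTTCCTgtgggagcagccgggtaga
Rpl6 (chr5:121204486-121204515, plus strand): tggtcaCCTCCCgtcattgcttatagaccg
Rps18 (chr17:33955651-33955680, minus strand): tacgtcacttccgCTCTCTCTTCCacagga
Rplp2 (chr7:141447636-141447665, plus strand): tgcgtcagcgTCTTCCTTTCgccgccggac
Rpl39 (chrX:37085208-37085237, minus strand): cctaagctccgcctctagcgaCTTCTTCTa
Rpl38 (chr11:114668565-114668594, plus strand): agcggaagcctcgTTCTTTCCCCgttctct
Rps19 (chr7:24884577-24884606, plus strand): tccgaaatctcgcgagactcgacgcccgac
Rps3 (chr7:99483695-99483724, minus strand): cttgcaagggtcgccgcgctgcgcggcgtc
Rps15 (chr10:80292416-80292445, plus strand): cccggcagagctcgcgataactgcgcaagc
Rpl5 (chr5:107900513-107900542, plus strand): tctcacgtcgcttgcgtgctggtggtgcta
The run was 14 bases long in Rpl14, 11 in Rpl4 and Rps18, 10 in Rps6, Rplp2 and Rpl38, 8 in Rpl39 and 6 in Rpl6. In the entries of Rps19, Rps3, Rps15 and Rpl5, 4 of the 12 shown, no run reached 5 bases. The annotated base there is therefore not within such a tract. In Rpl4 and Rpl6 the marked run ends before the annotated start, and in Rpl39 it begins after it, so the marked run does not hold the start. In Rpl39 a shorter, unmarked run of 5 bases ends on the annotated start. Rps19 has 3 entries, and only the first is shown.

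RefSeq held promoter entries for 67 of the 88 genes, 79 entries in all. The letters CTTTC stood in the 30-base window on the gene's strand in 18 of these 79 entries, 22.8%, against 4.05% of 32851 entries of all genes. On the opposite strand the same letters stood in 3.80% of member entries and 3.60% of all entries. CTTCC was present in 18.99% of member entries and 6.63% of all entries on the gene's strand, and in 11.4% and 7.31% on the other strand. CCGGAAG, the core of sites bound by ETS factors, was found on either strand of the whole 300-base entry in 34.2% of member entries and 8.86% of all. Several entries can belong to 1 gene, and a match of letters is a description, not a site.

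Together the 88 genes took a small share of each library. It lay between 1.252 and 1.553% of all counts, with a median of 1.44%, the highest library being 23.997% above the lowest, of which the large subunit took 0.728 to 0.888% and the small subunit 0.525 to 0.665%. The 78 genes of the mitochondrial ribosome took 0.568 to 0.682%.

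The balance of the subunits hardly moved over the 6 groups. The summed count of the large subunit divided by that of the small subunit was 1.35, 1.37 and 1.31 in the WT control libraries, and 1.33, 1.33 and 1.36 in KO control. With 10 µM LCA it was 1.33, 1.32 and 1.31 in WT and 1.34, 1.33 and 1.39 in KO. With 50 µM LCA it was 1.39, 1.33 and 1.37 in WT and 1.36, 1.34 and 1.34 in KO. The highest library lay 5.78% above the lowest, and in each of the 7 comparisons between 2 groups the libraries overlapped. Group means ran from 1.32 ± 0.0101 (SD, n = 3) in WT LCA10 to 1.36 ± 0.0301 in WT LCA50. This ratio is taken within a library and no library scaling can move it, and since the sum follows the abundant genes it is not a ratio of molecules.

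The share of counts, unlike the ratio, was highest in KO cells with 50 µM LCA. Its values there were 1.52, 1.55 and 1.51%, against 1.44, 1.40 and 1.37% in KO control and 1.46, 1.35 and 1.33% in WT LCA50. Both subunits moved: in KO LCA50 the large subunit took 0.875 ± 0.0132% and the small subunit 0.651 ± 0.0118%, and in KO control 0.803 ± 0.0168% and 0.600 ± 0.0196%. The KO LCA50 libraries did not overlap KO control or WT LCA50 in the whole share or in either subunit. WT cells with 50 µM LCA stood at 1.38 ± 0.0732%, beside 1.39 ± 0.0700% in WT control, and these overlapped. With 10 µM LCA the WT shares were 1.38, 1.48 and 1.47%, and those of KO were 1.47, 1.49 and 1.252%, where the third library was the lowest of all 18. The receptor gene counts in the KO LCA50 libraries were 164, 47.2 and 93.4 CPM, in the order of the shares above. The share carries no p-value, and more ribosomal mRNA in each cell and more cells rich in it cannot be told apart in bulk RNA. Other measures moved with 50 µM LCA as well. The CD8 marker sum was lower without overlap, at 4692 to 4774 CPM in WT control and 3920 to 4492 in WT LCA50, and at 4550 to 4599 in KO control and 3568 to 4454 in KO LCA50. The NK marker sum was higher, at 88.3 to 98.9 and 133 to 156 CPM in WT and at 77.9 to 90.9 and 100.3 to 139.8 in KO. Rn45s, the ribosomal RNA precursor, took 0.996 to 1.42% of counts in WT control and 1.53 to 1.68% in WT LCA50, and 1.19 to 1.22% in KO control and 1.26 to 1.49% in KO LCA50. The part of these in the share was not tested, except that the log2 difference in share between KO LCA50 and KO control was 0.121, and 0.125 with Rn45s and Lars2 taken out of the totals.

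**Figure D1:**
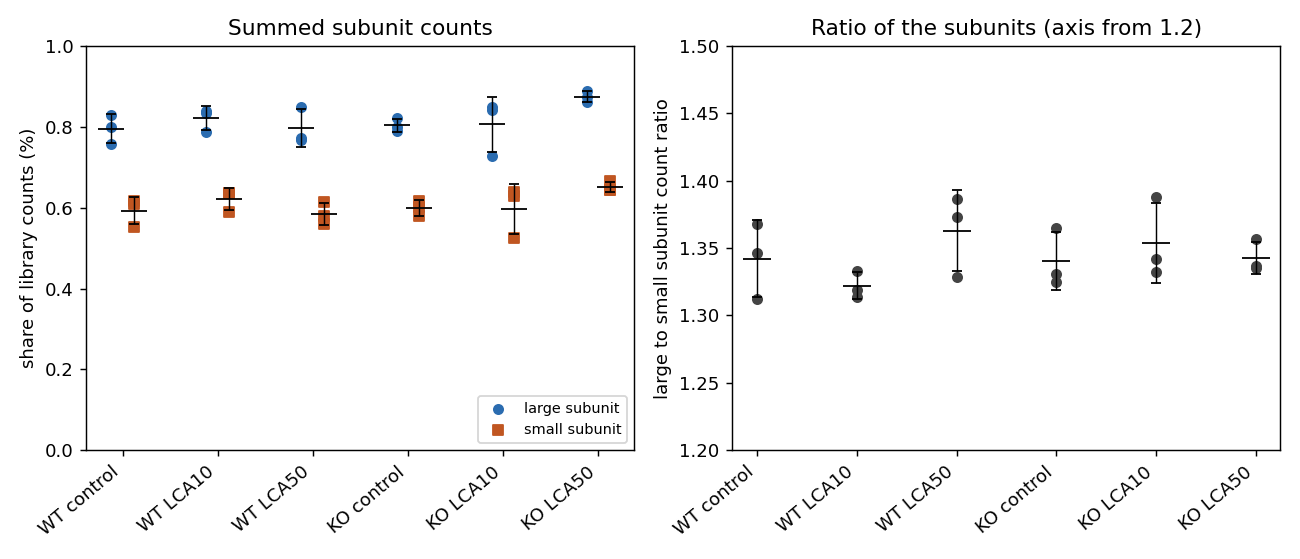
Share of library counts taken by the large and small subunit genes (left, %) and the ratio of the subunits' summed counts (right, axis from 1.2) in each of 6 groups. Points are libraries, bars the mean and SD of 3. KO LCA50 has the highest shares, 1.51 to 1.55% for both subunits together, and the ratio overlaps between groups.

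Levels of single genes differed far more than levels of a group. On the scale of CPM per kilobase of transcript, averaged over the 18 libraries, the 85 genes that passed the filter on low counts spanned 349-fold, against 56.1-fold for the mitochondrial set. The median was 90.2 CPM per kilobase over both subunits, 69.7 for the large and 105 for the small subunit, and 63.1 for the mitochondrial genes. In the large subunit the highest were Rpl4 at 1156, Rplp0, the base of the stalk, at 1115, and Rpl8 at 960 CPM per kilobase. In the small subunit Rps3, a protein of the mRNA entry site, was among the highest at 1082. The lowest of the small subunit were Rps4l at 3.76, Rps27rt at 7.23 and Rps12 at 9.13. In the large subunit the lowest were Rpl10l at 0.0844, Rpl3l at 0.162 and Rpl39l at 0.580.

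The low values sat partly where the sequence is shared with other genes. Ribosomal protein genes have many processed pseudogenes, and a read from a shared stretch can be discarded or split, so each gene's transcripts were cut into all 50-base windows and a window was counted as shared when another annotated gene holds it. The median share was 38.3% over the 85 genes and 2.84% over the mitochondrial genes. At least 10% of windows were shared in 78 of 85 cytosolic and 30 of 78 mitochondrial genes, and the median cytosolic gene shared a window with 8 pseudogenes. The 20 genes with under 25% shared had a median level of 177 CPM per kilobase, the 36 genes from 25 to 50% had 97.3, the 17 from 50 to 75% had 60.8 and the 12 from 75% on had 41.7. Spearman's rho between shared windows and level was -0.40 over 85 genes, and -0.23 over the 78 mitochondrial genes. These are descriptions across genes, which share libraries and base composition. The labels do not state how the authors' counting treated shared reads, so levels between these genes are uncertain, and their part in the low values was not tested.

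**Figure D2:**
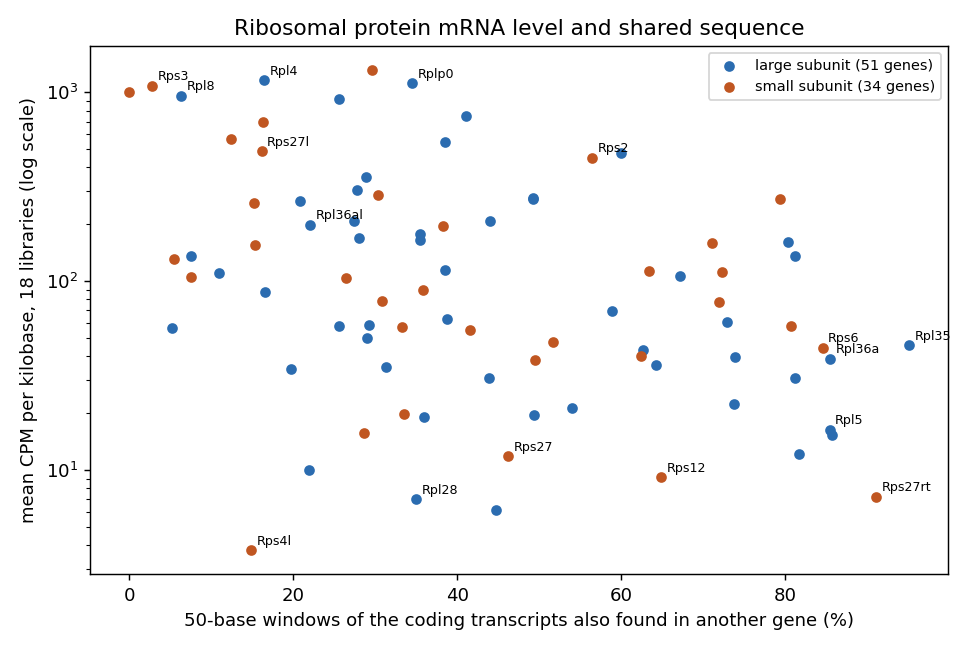
Mean CPM per kilobase over 18 libraries (log scale) against the percent of 50-base windows also found in another gene, for the 85 genes tested, 51 of the large and 34 of the small subunit. Rps3, with 2.82% of its windows shared, stands at 1082, and Rps27rt, with 91.1% shared, at 7.23. Other genes lie apart from this order: Rps4l, with 14.9% shared, stands at 3.76, and the highest gene with at least 75% shared at 273.

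The Rps27 family, small subunit proteins with a zinc finger, shows how far copies can lie apart. Rps27 and its retrocopy Rps27rt have identical coding sequences, 0 differences over 252 bases, whereas Rps27l differs from Rps27 at 60 of the 252, an identity of 76.2%. The coding starts of 90 bases from GENCODE M21, with capitals where Rps27l differs from Rps27 (24 bases), read as follows.
Rps27: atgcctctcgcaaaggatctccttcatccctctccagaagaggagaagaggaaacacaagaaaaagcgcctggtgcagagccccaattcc
Rps27rt: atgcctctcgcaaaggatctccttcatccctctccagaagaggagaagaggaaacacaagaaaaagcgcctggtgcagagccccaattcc
Rps27l: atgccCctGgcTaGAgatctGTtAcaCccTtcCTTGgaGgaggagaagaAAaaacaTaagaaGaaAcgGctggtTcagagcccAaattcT
Rps27 had 15 to 37 counts in a library and Rps27rt 6 to 22, while Rps27l had 978 to 1383. Per kilobase, Rps27l stood at 489 CPM, Rps27 at 11.8 and Rps27rt at 7.23. A read within the coding region of the identical pair cannot be assigned to 1 of them, so their separate values are uncertain.

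Rpl36a and Rpl36al, a pair of large subunit genes with 39 differences over 318 coding bases (identity 87.7%), also lay apart. Capitals mark the 14 bases of the first 90 at which Rpl36al differs.
Rpl36a: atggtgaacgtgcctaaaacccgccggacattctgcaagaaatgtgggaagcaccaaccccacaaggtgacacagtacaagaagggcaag
Rpl36al: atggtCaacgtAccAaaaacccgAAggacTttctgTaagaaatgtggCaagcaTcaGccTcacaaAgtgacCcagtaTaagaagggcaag
Rpl36al stood at 199 CPM per kilobase and Rpl36a at 38.9, with 22.1% and 85.5% of windows shared. The pairs of Rpl22 and of Rpl7 were closer. Rpl22l1 stood at 69.7 and Rpl22, the partner whose loss is known to raise it, at 56.7 CPM per kilobase. Rpl7l1, which is better known from nucleolar ribosome assembly, stood at 136 and Rpl7 at 276. The remaining pairs were no closer: Rpl32l was at 166 beside Rpl32 at 918, Rpl37rt at 548 beside Rpl37 at 34.9, and Rps4l at 3.76 beside the X-linked Rps4x at 111. The 3 genes that missed the filter are copies known mainly from testis or striated muscle: Rpl10l had 8 counts over all 18 libraries, in 3 of them, Rpl39l 34 counts in 13 libraries and Rpl3l 15 counts in 7. None of the 14 tested paralogs and partners was called by edgeR in any of the 11 comparisons.

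Changes between groups were tested for 11651 genes with edgeR's quasi-likelihood test, and a gene was called when its p-value, adjusted by Benjamini-Hochberg over all of them, was under 0.05. In WT cells 50 µM LCA called 0 of 85 ribosomal protein genes, against 1000 of all genes (8.58%). In KO cells it called 4 of 85 (4.71%), all higher, against 740 of all genes (6.35%, with 2.93% higher). In the mean over both guides 3 of 85 (3.53%) were called, all higher, against 1925 of all genes (16.5%, with 7.86% higher). In WT and in the mean over guides the share lay under that of all genes, and in KO it lay between the share of all genes called higher and that called either way. Nothing particular to the ribosomal proteins is read from these shares.

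Rpl6, a large subunit protein, had the greatest change among those called. Its CPM in KO control were 48.8, 33.9 and 33.8, and in KO LCA50 47.7, 59.6 and 56.4. The first KO control library lay above the lowest KO LCA50 library, so the groups overlapped. The log2 fold change was 0.50 ± 0.14 (SE, adjusted p = 0.0219, edgeR). In WT it stood at 47.1, 38.7 and 39.4 without LCA and at 44.6, 43.6 and 44.9 with 50 µM, and over both guides it rose by 0.29 ± 0.10 on the log2 scale (adjusted p = 0.0342, edgeR). Of its 50-base windows, 64.3% are shared with other genes.

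Rpl4, a large subunit protein that reaches into the exit tunnel, was far better covered. It stood at 1704, 1768 and 1733 CPM in KO control and at 2025, 1988 and 1964 in KO LCA50, with no overlap. The log2 fold change of 0.20 ± 0.06 had an adjusted p of 0.0328 (edgeR). In WT LCA50 its CPM were 1869, 1665 and 1678, beside 1743, 1730 and 1671 in WT control, which overlap.

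Rplp1, an acidic protein of the stalk that recruits elongation factors, was at 237, 211 and 218 CPM in KO control and at 264, 277 and 274 in KO LCA50. The groups did not overlap, and the log2 fold change was 0.29 ± 0.09 (adjusted p = 0.0365, edgeR). Its stalk partners did not pass: in the same comparison Rplp0 had a log2 fold change of 0.11 ± 0.06 (adjusted p = 0.337, edgeR) and Rplp2 one of 0.12 ± 0.12 (adjusted p = 0.636, edgeR).

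Rpl14 and Rps19 were called in the mean over guides but in neither guide alone. Rpl14 stood at 262, 222 and 251 CPM in WT control, 263, 260 and 296 in WT LCA50, 269, 263 and 271 in KO control and 290, 329 and 295 in KO LCA50. Its log2 fold change was 0.17 ± 0.05 (adjusted p = 0.0232, edgeR). The WT libraries overlapped and the KO libraries did not. Rps19, whose human counterpart is mutated in Diamond-Blackfan anaemia, stood at 161, 137 and 161 CPM in WT control, 176, 163 and 151 in WT LCA50, 164, 152 and 154 in KO control and 198, 179 and 187 in KO LCA50. Its log2 fold change was 0.18 ± 0.06 (adjusted p = 0.0461, edgeR), again with overlap in WT only.

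**Figure D3:**
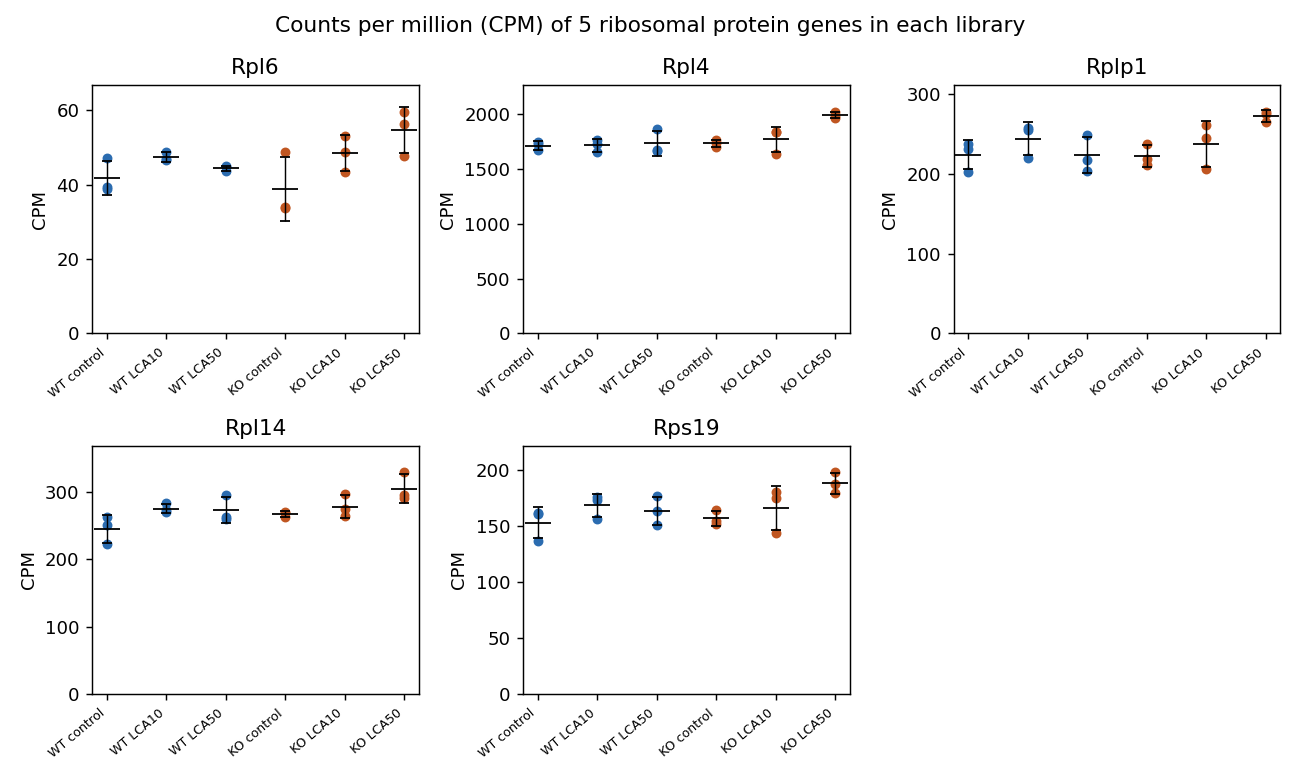
CPM of Rpl6, Rpl4, Rplp1, Rpl14 and Rps19 in the 18 libraries by group (linear axes from 0), with mean and SD of 3 libraries. All 3 KO LCA50 libraries lie above all 3 KO control libraries in each panel except Rpl6, where 1 control library reaches 48.8.

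These calls rest on few libraries. Leaving out 1 library at a time gave 0 to 5 called genes in KO cells, with 0 when KO control library 2, KO control library 3 or KO LCA50 library 2 was left out, 1 without KO LCA50 library 3 and 2 without KO control library 1. In the mean over guides it gave 0 to 4, with 0 without WT control library 2 or KO control library 2. The shares of all genes called in these fits are not given here.

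Among the 85 genes as a whole, estimates in KO cells lay mostly above 0 at 50 µM. In KO LCA50 against KO control 73 of 85 estimates were above 0 with a median log2 fold change of 0.11, where all genes tested had a median of 0.00 and 50.8% above 0. The medians were 0.10 for the large and 0.13 for the small subunit, and 0.06 for the mitochondrial genes. In WT LCA50 against WT control 38 of 85 lay above 0 (51.0% of all genes), with a median of -0.03. The sign of that median changed, to 0.04, once receptor gene counts entered the fit as a covariate. With that covariate the KO median was 0.09 and 4 genes were called. Without the LCA50 library of highest receptor counts in each guide the KO median was 0.13 and again 4 were called. For both fits the share of all genes called is not given here. The SD of the 85 estimates was 0.14 in WT and 0.18 in KO, beside median standard errors of 0.12 in each, so the scatter among genes was of similar size to the error of a single gene. Rps4l had the highest estimate in KO, 1.10 ± 0.53, and it was not called (adjusted p = 0.249, edgeR). The KO and WT comparisons use separate control libraries.

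**Figure D4:**
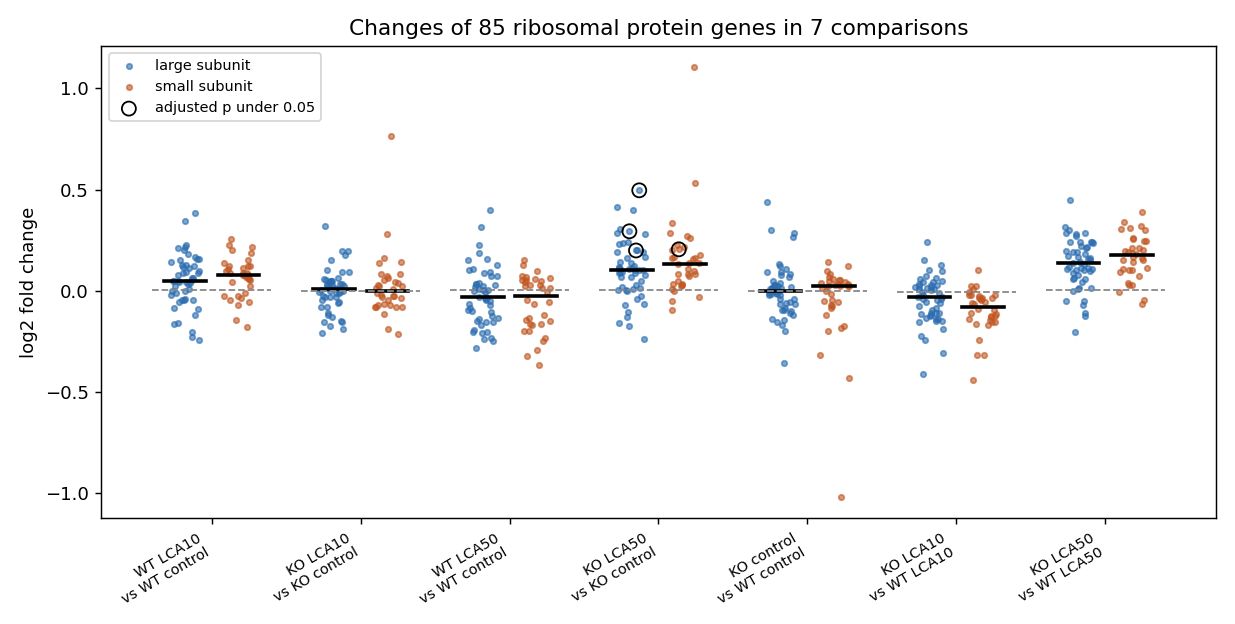
Log2 fold changes of the 85 tested genes in 7 comparisons, large and small subunit apart, with black bars for the medians, dashed lines for the median of all genes and circles for genes called. The medians in KO LCA50 against KO control (0.10 and 0.13) and against WT LCA50 (0.14 and 0.17) lie above the all-gene line.

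Between the guides at 50 µM, 0 of 85 genes were called by edgeR, against 226 of all genes (1.94%). At an unadjusted p under 0.05 there were 20 of 85 (23.5%, against 13.5% of all genes), and DESeq2 called 3 (3.53%, against 2.75%). Of the estimates, 76 of 85 lay above 0, with a median of 0.15, against 50.6% of all genes with a median of 0.00. Between the guides at 10 µM 25 of 85 lay above 0 (48.9% of all genes) with a median of -0.05. Without LCA 43 of 85 did (49.7% of all genes), with a median of 0.01. Rpl39, a small protein of the exit tunnel, came nearest: its CPM were 49.6, 46.4 and 45.6 in WT LCA50 and 55.8, 70.1 and 67.1 in KO LCA50, with no overlap, and the log2 fold change was 0.45 ± 0.12 (adjusted p = 0.05002, edgeR, not under the threshold as computed). Rps18, of the small subunit head, stood at 142, 136 and 122 CPM against 164, 172 and 161, a log2 fold change of 0.31 ± 0.09 (adjusted p = 0.0655, edgeR). Rpl4 had 0.20 ± 0.06 (adjusted p = 0.0674, edgeR). The KO LCA50 libraries are the same as in the comparison with KO control, so these values do not stand apart from those above.

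The response to 50 µM was compared between the guides by an interaction term, which called 0 of 85 and 0 of 11651 genes (0%) with edgeR, and DESeq2 called 0 of 85 too (1 of all genes, 0.00858%). At an unadjusted p under 0.05 there were 11 of 85 (12.9%) and 729 of all genes (6.26%). The smallest p-values belonged to Rps15, with a difference in log2 response of 0.43 ± 0.15 (adjusted p = 0.728, edgeR), Rpl39 with 0.51 ± 0.18 (adjusted p = 0.728, edgeR) and Rplp1 with 0.30 ± 0.12 (adjusted p = 0.793, edgeR). For Rpl6 it was 0.41 ± 0.19 and for Rpl4 0.18 ± 0.08, each with an adjusted p of 0.79 (edgeR). A rise called in KO and not in WT is therefore not shown to differ between the guides.

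In WT cells at 50 µM no gene was called, 2 of 85 had an unadjusted p under 0.05 (2.35%, against 22.2% of all genes), and DESeq2 called 0 (against 9.17%). The smallest p-values were those of Rps3, Rpl19 and Rpl14. Rps3 stood at 1083, 1017 and 1073 CPM in WT control and 981, 926 and 860 in WT LCA50, with no overlap, and its log2 fold change of -0.20 ± 0.08 had an adjusted p of 0.107 (edgeR). Rpl19 had 0.31 ± 0.14 (adjusted p = 0.184, edgeR) and Rpl14 0.15 ± 0.08 (adjusted p = 0.226, edgeR). The 95% intervals lay within 0.5 log2 units of 0 for 62 of 85 genes, and within 1 for 81.

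At 10 µM 0 of 85 genes were called in either guide, against 45 of all genes in WT (0.386%) and 38 in KO (0.326%). DESeq2 called 0 in each (0.661% and 0.558% of all genes), and at an unadjusted p under 0.05 there were 3 in WT and 1 in KO (7.80% and 7.81% of all genes). Of the estimates, 60 of 85 lay above 0 in WT (50.6% of all genes) with a median of 0.06. In KO 45 of 85 did (49.6% of all genes), with a median of 0.01. In WT the smallest p-values belonged to Rpl5, which with Rpl11 and the 5S RNA forms the particle that can bind Mdm2, with 0.38 ± 0.16 (adjusted p = 0.51, edgeR), and to Rps18 and Rpl14 with 0.20 ± 0.09 and 0.17 ± 0.08. In KO they belonged to Rpl6 with 0.32 ± 0.14 (adjusted p = 0.522, edgeR), Rplp2 with 0.20 ± 0.12 and Rps13 with 0.28 ± 0.18. Rpl5 stood at 22.5, 19.4 and 19.8 CPM in WT control, 23.97, 29.7 and 26.9 in WT LCA10, 24.1, 25.1 and 26.03 in KO control and 20.1, 22.4 and 22.5 in KO LCA10. Its libraries lay above the control mean in WT and below it in KO, and the difference in log2 response, -0.59 ± 0.22, did not pass (adjusted p = 1.00, edgeR). In that interaction at 10 µM 0 of 85 and 0 of all genes (0%) were called, DESeq2 called 0 of 85 and 0% of all, and 3 of 85 had an unadjusted p under 0.05 (against 3.28% of all genes), the others being Rps18 at -0.28 ± 0.13 and Rpl38 at -0.37 ± 0.18.

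The Nur77 guide without LCA called 0 of 85, against 73 of all genes (0.627%), with 0 of 85 by DESeq2 (0.841% of all genes) and 0 at an unadjusted p under 0.05 (8.69% of all genes). The median was 0.01, and the smallest p-values were those of Rps20 with 0.14 ± 0.07 (adjusted p = 0.577, edgeR), Rps4l with -1.02 ± 0.53 and Rpl19 with 0.27 ± 0.14. At 10 µM the guides gave 0 of 85 against 77 of all genes (0.661%), 0 of 85 by DESeq2 (1.00% of all genes) and 1 when p was left unadjusted (8.39% of all genes). Rpl38, which is known for its role in translating Hox mRNAs, was the nearest with -0.41 ± 0.13 (adjusted p = 0.172, edgeR), followed by Rps21 with -0.32 ± 0.16 and Rpl5 with -0.31 ± 0.16. Over the mean of doses 0 of 85 were called against 600 of all genes (5.15%), 3 had an unadjusted p under 0.05 (15.4% of all genes) and DESeq2 called 0 (5.84% of all genes). Rpl4 had 0.09 ± 0.03 (adjusted p = 0.158, edgeR), Rpl14 0.10 ± 0.04 and Rps20 0.09 ± 0.04.

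Rps6, Rpl5, Rpl11 and Rps27a, members with a role outside the subunits, were not called in any of the 11 comparisons. Rps6, whose phosphorylation is a common readout of mTORC1, stood at 37.5 ± 4.43 CPM in WT control, 38.2 ± 7.26 in WT LCA50, 38.9 ± 3.67 in KO control and 41.3 ± 3.95 in KO LCA50. Its log2 fold changes were 0.03 ± 0.15 in WT (adjusted p = 0.94, edgeR) and 0.08 ± 0.14 in KO (adjusted p = 0.807, edgeR). Rpl11 stood at 14.3 to 16.6 CPM in the group means and Rpl5 at 20.6 to 26.9. Rps27a, made as a fusion with ubiquitin, had 27.9 ± 2.12 CPM in KO control and 31.2 ± 1.44 in KO LCA50 (log2 fold change 0.16 ± 0.16, adjusted p = 0.625, edgeR). Fau and Rack1 were not called in any comparison.

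The genes that build ribosomes were followed beside the proteins, as a list chosen with earlier results of these data known. Of 61 ribosome biogenesis genes, 27 rose and 0 fell with 50 µM LCA over the mean of guides (44.3% higher, against 7.86% of all genes higher and 8.66% lower), with a median log2 fold change of 0.15, beside 0.01 for all genes and 0.04 for the ribosomal proteins. In WT alone 14 rose (22.95%, against 3.66% of all genes) and in KO alone 3 (4.92%, against 2.93%), with medians of 0.15 and 0.12, and that difference between the guides was called for 0 of the 61. The smallest p-values belonged to Nop56, a core protein of box C/D particles, with 0.38 ± 0.05, Noc2l, which acts in export of the large subunit, with 0.22 ± 0.04, and Nop14, of the small subunit precursor, with 0.30 ± 0.06, all with an adjusted p under the threshold. Between guides over the mean of doses 3 of 61 fell (4.92%, against 1.79% of all genes lower): Ncl (nucleolin) by 0.12, Mdn1 by 0.29 and Grwd1 by 0.18 on the log2 scale.

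Of 32 core translation factors 3 (9.38%) rose at 50 µM over the mean of guides, near the 7.86% of all genes: Eif1 with 0.30 ± 0.06, Eif5 with 0.20 ± 0.05 and Eif4a2 with 0.25 ± 0.07. Between guides none of the 32 was called, and the most abundant, Eef1a1 and Eif5a, had 0.09 ± 0.03 and -0.02 ± 0.03. Of 30 tested genes of RNA polymerases I and III, which make the ribosomal RNAs, 2 (6.67%) rose and 3 (10.0%) fell, near the shares of all genes given above. The rises were Ubtf with 0.17 ± 0.05 and Polr3d with 0.40 ± 0.12, and the falls Polr3k with -0.37 ± 0.07, Maf1, a repressor of polymerase III, with -0.22 ± 0.06, and Polr1d with -0.21 ± 0.07. Between guides none of the 30 was called, and Ubtf and Gtf3a had -0.05 ± 0.04 and -0.08 ± 0.05.

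Of 25 genes around mTORC1 and the control of translation, 6 rose (24%, against 7.86% of all genes) and 2 fell (8%, against 8.66%) at 50 µM. The rises with the smallest p-values were in Mycn, with 1.53 ± 0.20 from a mean level of 11.3 CPM, Gatsl3 (Castor1, an arginine sensor) with 0.75 ± 0.13, and Sesn2, an inhibitor of mTORC1 induced by amino acid stress, with 0.92 ± 0.14. Mxd4, a Myc antagonist, had -0.95 ± 0.28 at a mean of 4.21 CPM and Sesn1 -0.31 ± 0.10. Between guides 2 of 25 rose (8%, against 3.36% of all genes): Ddit4 by 0.24 ± 0.07 and Eif4ebp1, a repressor of initiation, by 0.27 ± 0.08. Of 18 genes of ribosome hibernation, collisions and surveillance 3 rose at 50 µM (16.7%, against 7.86% of all genes), Habp4 with 0.51 ± 0.12, Ube2o with 0.29 ± 0.08 and Trp53 with 0.16 ± 0.05, and none was called between guides, where the most abundant, Serbp1 and Trp53, had -0.04 ± 0.04 and 0.03 ± 0.04. The receptor gene counts, which were highest in WT LCA50 and 1 KO LCA50 library, move with these comparisons too, and their part in the list counts was not tested.

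**Figure D5:**
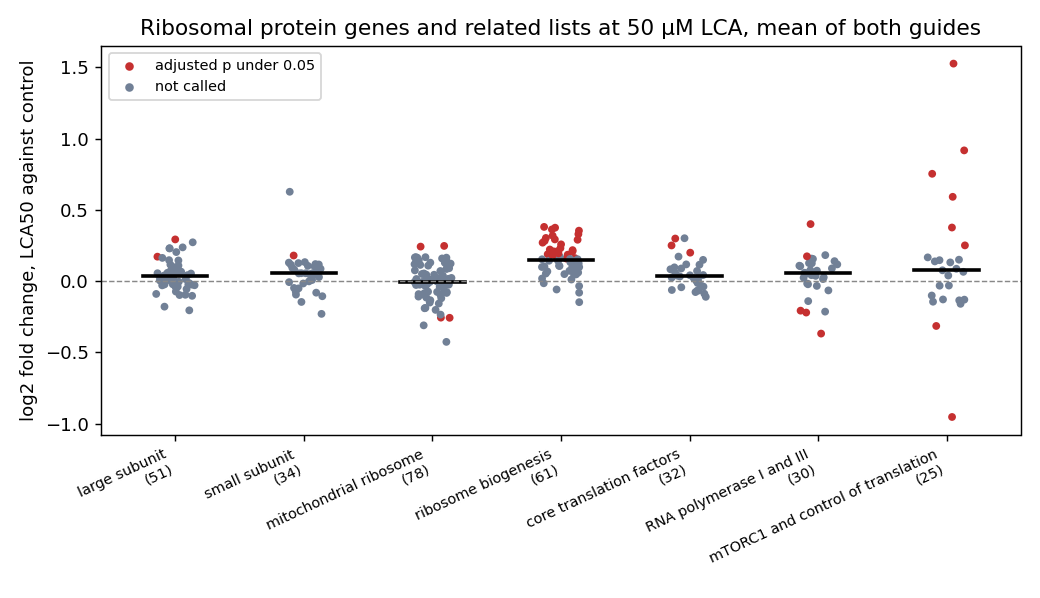
Log2 fold changes at 50 µM LCA against control, mean of both guides, for the large and small subunit genes, the mitochondrial ribosome and 4 lists of related genes (number tested in brackets), with medians as bars and genes called in red. The median is 0.15 for ribosome biogenesis and 0.04 over the 85 ribosomal protein genes.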

How the data were processed

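RNA from 18 libraries had been sequenced after an ultra-low input preparation, and the deposited table holds raw counts for 24537 gene symbols, not normalized by the authors. Per the submitters' processing notes, STAR, HOMER and DESeq2 were used with GRCm38 and mm10. Versions, strandedness and the handling of multiply mapped reads are not given in the sources used here. Here, the members, lists, comparisons and rule for naming genes were chosen with earlier results of these data known.

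All 18 libraries entered 1 edgeR model (edgeR 4.0.16, R 4.3.3) with a mean for each of 6 groups, genes filtered by filterByExpr (11651 left, 85 of 88 members), TMM scaling and a robust quasi-likelihood fit. P-values were adjusted by Benjamini-Hochberg over all 11651 genes in each of 11 comparisons, at a threshold of 0.05. The biological coefficient of variation was 0.0984. Standard errors are the size of the log2 fold change divided by √F. The fit was tested on simulated data. DESeq2 1.42.0, other scalings, filters and left-out libraries were tried as alternatives. Within groups, pairs of libraries differed by 2.44 to 8.56 times the squared counting error, so no library was a copy.

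Levels per kilobase used the median length of protein coding transcripts (GENCODE M21). The planned exon length was replaced by it. Named genes are those called in a comparison, otherwise the 3 with the smallest p, the 3 highest and lowest per subunit, the role groups, and up to 3 called genes of each other list each way. A few genes that this rule takes are counted in the totals but not reported by name here. Of 195 list genes 192 were matched by symbol. Labels give the groups the same numbers, but deviations of same-numbered libraries correlated between -0.22 and 0.09, so they were not paired. Shares and ratios carry no test.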

Additional observations from a re-analysis of the deposited data

Results flagged for a closer look

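Of 40 responses examined (named genes, the share and the ratio, at each dose), 4 moved in opposite directions in the guides, in that all 3 treated libraries of 1 guide lay above, and all 3 of the other below, the mean of their own guide's control. In KO minus WT response on the log2(CPM + 0.5) scale, Rps3 at 50 µM differed by 0.25, Rpl39 at 50 µM by 0.501, Rps15 at 50 µM by 0.433 and Rpl5 at 10 µM by -0.582. Rps3, Rpl39 and Rps15 lay below control in WT and above it in KO, and Rpl5 lay above it in WT and below it in KO. The interaction test of edgeR, adjusted over all genes, gave 0.793 for Rps3, 0.728 for Rpl39, 0.728 for Rps15 and 1.00 for Rpl5. None passed. The genes had been chosen for small p-values in these comparisons, so these values are a description. The share of all genes that meet the same rule was not computed, so the 4 of 40 cannot be set against it.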

How the results depend on the processing

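Directions were followed for the ribosomal protein genes called in a comparison, or the 3 with the smallest p where none was called. Of 630 alternative values 0 reversed, 559 kept their side of the threshold, 59 of the called ones fell short of it and 12 others came to pass it. These genes had been picked for small p-values and the runs share most libraries, so the lack of reversals says little about stability. The count of ribosomal protein genes called was less stable. In WT LCA50 against control it was 1 (Rps3, lower) without the low-count filter and 1 with only the compared groups in the fit. In KO LCA50 it was 2 without the filter and 1 with only the compared groups. Between guides it was 1 at 10 µM without the filter, and at 50 µM 3 with DESeq2, 1 with TMM computed without the ribosomal protein genes, 6 without the filter and 1 with a mean CPM of at least 5. Over the mean of guides it was 5 with DESeq2, 7 with total counts only, 0 without the filter and 7 with a mean CPM of at least 5. The cause was not tested. Leaving out each library gave 0 to 5 in KO LCA50 against control, 0 to 5 between guides at 50 µM (4 without WT LCA50 library 1, 5 without KO LCA50 library 1) and 0 to 4 over the mean of guides. Those without WT control library 3, KO control library 1 or 3, WT LCA50 library 1 or 2 or KO LCA50 library 2 gave 1. With the replicate number as a block, 3 genes were called in KO LCA50 (4 without the block) and 2 over the mean of guides (3 without), and no other count of the 11 comparisons changed. The labels do not pair these libraries. For most of these alternatives the share of all genes called is not given here. Their counts show only how far the number of calls moved, not whether it exceeded that share.

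The log2 difference between groups in the subunit ratio moved by over 1 SD in 4 cases: with the mean of log2 CPM in place of sums it was -0.055 in KO LCA50, -0.020 in KO LCA10 and 0.052 in KO control against WT control, and without the 5 most abundant genes of each subunit it was 0.00766 in WT LCA10. Each other alternative for the ratio and the share moved by less. The mean of log2 CPM gives each tested gene the same weight, Rps4l with 5 to 26 counts a library among them. The log2 fold change of Rps4l was 1.10 in KO LCA50 against KO control and -1.02 in KO control against WT control. Its part in the 3 values from that mean was not tested. Genes such as Rps27 with 15 to 37 counts a library carry wide errors, and small differences there were not detectable at this depth.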
